A study of Mus musculus with 49 samples.

Results

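The neurons compared here were D1- and D2-medium spiny neurons (MSNs) of the mouse nucleus accumbens (NAc) that were sorted as whole cells by fluorescence-activated cell sorting (FACS) before RNAseq. The members were the count columns labelled whole cell, which gave 15 libraries, 9 D1 and 6 D2, where the series lists 49 samples in all. The D1 mice carried a cytoplasmic fluorescent protein under the Drd1 promoter and the D2 mice one under the Drd2 promoter, each on a single allele, in C57BL/6J mice labelled male, and every mouse was otherwise untreated as far as the labels state. Fresh NAc tissue was digested with papain at 37 °C, the study states that each sample came from its own mouse, and total RNA was depleted of ribosomal RNA and made into stranded libraries. The fluorescent protein reports promoter activity, so Drd1 and Drd2 check the sort and are not findings. The ninth D1 column is listed by the study as a repeat of D1 library 1, and the sources used here do not say whether it came from a further mouse. D2 library 3 was sequenced in 2 lanes, which were added. By the library names in the study's supplement, D1 and D2 libraries were also sequenced in different lanes, so lane and cell type cannot be told apart.

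MSNs are the projection neurons of the striatum, and the NAc is its ventral part. D1-MSNs carry the dopamine D1 receptor, which couples to stimulatory G proteins, and release substance P and dynorphin. D2-MSNs carry the dopamine D2 receptor, which couples to inhibitory G proteins, and the A2a adenosine receptor, and release enkephalin. In both types dopamine acts through cyclic AMP, and genes that answer to cyclic AMP often hold a cyclic AMP response element near their start.

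Of the 10 marker genes, 8 have a promoter window in RefSeq, and the windows of Tac1 and Gpr6 are shown because each holds a form of that element and each gene belongs to a set of markers that moved together here. The capitals mark TGCGTCA, 199 bases before the RefSeq start of Tac1, and TGACGTCA, 78 bases before that of Gpr6. Both are the 250 bases before the RefSeq start in GRCm38.p6, for Tac1 at chr6:7554811-7555060 on the plus strand and for Gpr6 at chr10:41072291-41072540 on the minus strand. GENCODE, from which the gene coordinates given with the values come, starts Tac1 farther upstream, so that most of the Tac1 window lies inside that gene model and the element just before it.
Tac1: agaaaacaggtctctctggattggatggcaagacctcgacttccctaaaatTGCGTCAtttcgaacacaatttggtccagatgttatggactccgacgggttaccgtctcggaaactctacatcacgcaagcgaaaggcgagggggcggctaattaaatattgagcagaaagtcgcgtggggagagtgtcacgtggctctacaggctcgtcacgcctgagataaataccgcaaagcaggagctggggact
Gpr6: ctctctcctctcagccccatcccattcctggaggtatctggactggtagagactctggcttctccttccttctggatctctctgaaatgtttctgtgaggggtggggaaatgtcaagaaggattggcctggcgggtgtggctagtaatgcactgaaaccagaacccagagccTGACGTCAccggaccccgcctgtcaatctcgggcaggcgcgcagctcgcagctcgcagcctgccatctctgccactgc
Searched on both strands, TGCGTCA was in 1.75% of all 32851 windows of this length and TGACGTCA in 1.55%. The shared core TGACG, whose letters also lie within TGACGTCA, was in the window of 50 of 156 D1-enriched genes (32.1%), 16 of 59 D2-enriched genes (27.1%) and 19.8% of all genes with a window. TGCGTCA itself was in 8 D1- and 0 D2-enriched genes (2.00% of all genes with a window), and TGACGTCA in 6 and 2 (1.77%). All genes with a window include genes not tested here, so they are not a background matched to the DEGs. The letters marked and counted are a description of the sequence and not a measured binding site.

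Several libraries stood apart before any comparison. D1 columns held 7876138 to 18807007 counts and D2 libraries 10850298 to 27965357. In the D1 columns 38843 to 45189 genes had a count, against 24778 to 35577 in the D2 libraries, with no overlap (exact permutation test over 5005 splits, two-sided, p = 0.0002, adjusted over 7 library properties 0.0014). The 10 highest genes took 2.70 to 9.09% of the counts in the D1 columns and 3.15 to 5.08% in D2 libraries 1, 3 and 4, but 54.5% in D2 library 2, 38.3% in D2 library 6 and 20.2% in D2 library 5. In D2 library 2 the highest were CT010467.1, annotated as rRNA (19.6%), and the lincRNAs Gm42418 (17.1%) and AY036118 (10.9%). These genes also ranked highest in D2 libraries 6 and 5, where CT010467.1 took 11.4% and 5.83%. In every other library CT010467.1 took at most 2.21%. If all genes had the mean level per length of the olfactory and vomeronasal receptor genes, which MSNs are not known to use, this would account for 13.5 to 52.6% of the D1 counts, highest in D1 libraries 8 and 2, and for 8.30 to 36.8% of the D2 counts (adjusted p = 0.249, exact permutation test). The median gene had an SD of 0.535 between D1 columns and 0.982 between D2 libraries on the log2 scale of CPM, counts scaled to the size of the library, and the SD was larger in D2 for 82.8% of genes. The chi-square of counts per degree of freedom, which is near 1 where only sampling noise separates 2 columns, was 1.04 between the lanes of D2 library 3 and 6.90 between D1 library 1 and its repeat. It was as low between D1 libraries 2 and 8 (6.02) and between D1 libraries 3 and 4 (7.47), although these are labelled as separate samples, and at least 19.6 for every other pair of D1 columns. These pairs were therefore also summed, as a choice made after the data were seen, and every p-value below measures the spread between the libraries as labelled. Columns this alike can also lower the D1 SD given above, which was not computed with them summed.

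**Figure D1:**
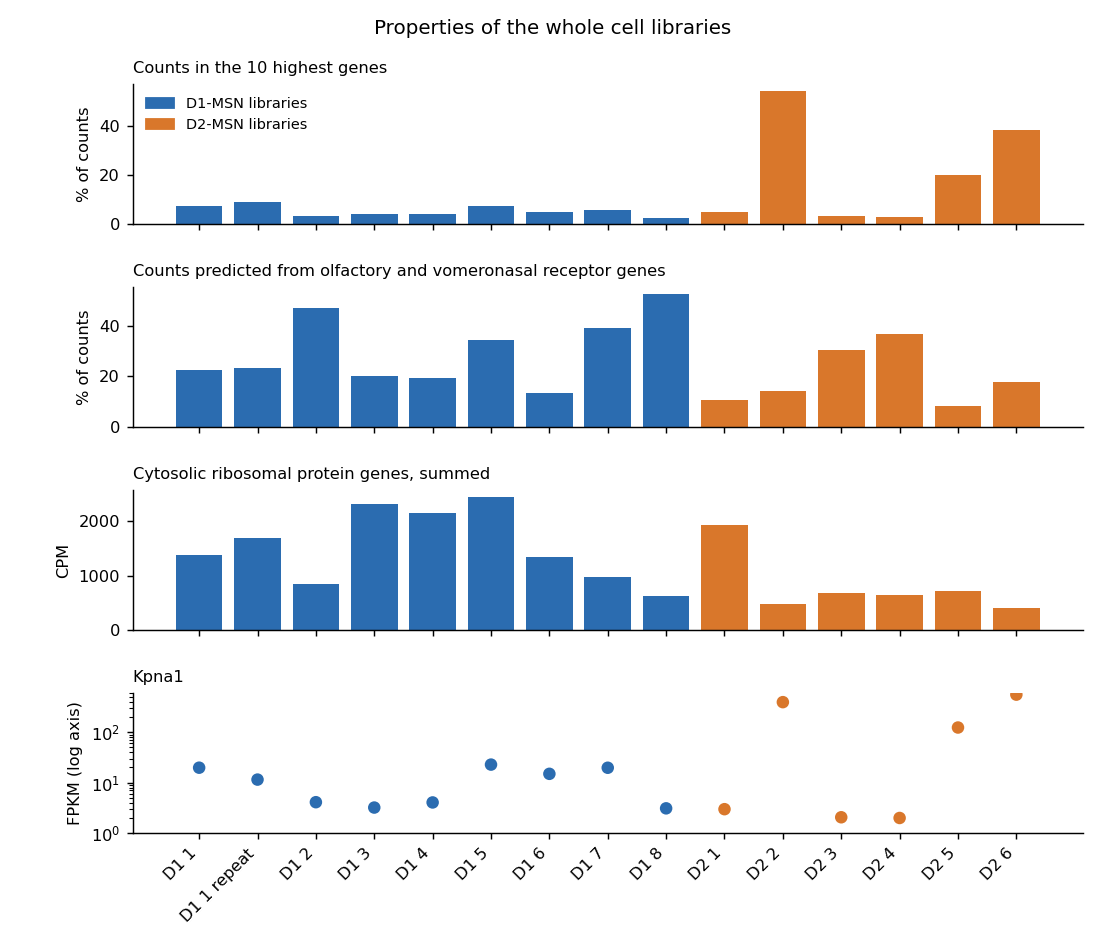
Library properties for each of the 15 whole cell libraries (D1 blue, D2 orange). From top to bottom, the panels give the percentage of counts in the 10 highest genes, the percentage predicted from olfactory and vomeronasal receptor genes, the summed CPM of cytosolic ribosomal protein genes and the FPKM of Kpna1 (log axis). D2 libraries 2, 5 and 6 stand above the other libraries in the first and last panels.

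To ask which genes distinguish the cell types, counts were compared with edgeR's quasi-likelihood test over 16644 genes. A gene was called differentially expressed (DEG) if its adjusted p did not exceed 0.05, its log2 fold change was over 0.38 in size and its mean count lay above the 25th percentile. Levels are given as FPKM, the CPM divided by the gene span in kilobases with introns included, and positive fold changes mean higher in D2-MSNs. There were 328 DEGs (1.97% of genes tested), 220 higher in D1-MSNs (1.32%) and 108 higher in D2-MSNs (0.649%). With the repeat added to D1 library 1, 174 DEGs remained (1.06%), 115 D1- (0.703%) and 59 D2-enriched (0.361%), and all were among the 328. With the 3 close D1 pairs summed there were 72 (0.467%), 49 D1- (0.318%) and 23 D2-enriched (0.149%), and again all were among the 328. The division between cell types followed the scaling: with DESeq2's size factors in edgeR, 348 genes were called (2.09%), 109 D1-enriched (0.655%) and 239 D2-enriched (1.44%), and the median of all genes moved from -0.08 to 0.05 on the log2 scale. DESeq2 itself called 852 DEGs (5.12%), 331 D1-enriched (1.99%) and 521 D2-enriched (3.13%). Of the 220 D1-enriched DEGs, 109 kept the call under that scaling and 215 under DESeq2, and of the 108 D2-enriched DEGs 108 and 107 did. In 84 of the 220 and 25 of the 108 DEGs the lowest library of the higher cell type lay above the highest library of the other. Over all genes tested, the D1 columns lay wholly above the D2 libraries for 0.913% and wholly below for 0.186%.

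**Figure D2:**
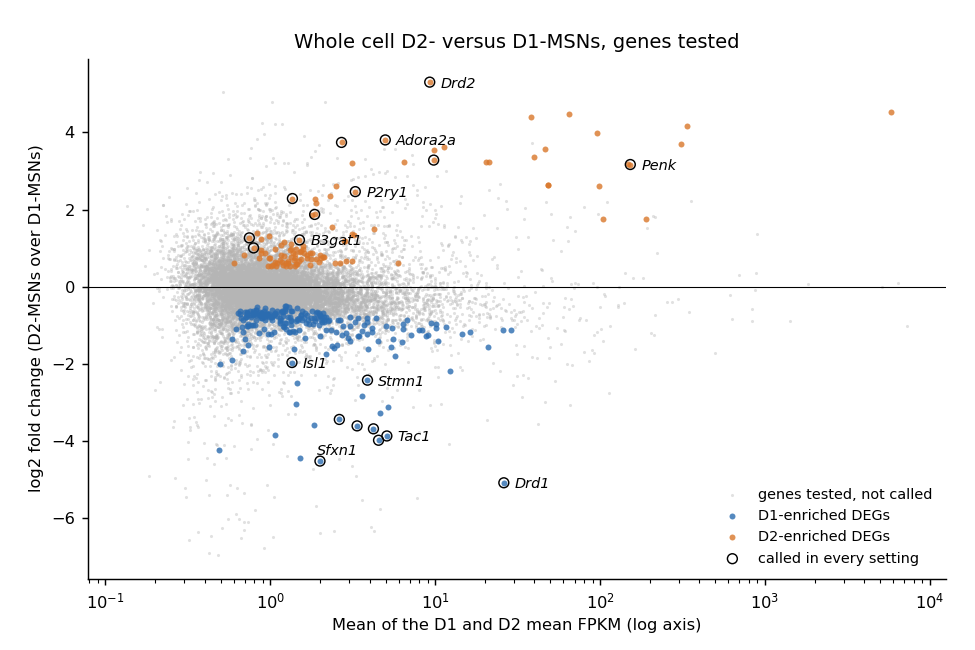
Log2 fold change (D2-MSNs over D1-MSNs) against the mean FPKM of both cell types (log axis) for the 16644 genes tested. D1-enriched DEGs are blue, D2-enriched DEGs orange, and rings mark the 20 genes called in each of the 30 fits. Apart from Penk, the orange points above 20 FPKM at the right are genes whose levels differed widely among the D2 libraries.

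The D1-MSN markers were higher in the D1 columns by between 3.90- and 33.7-fold. Drd1 (chr13:54051183-54055705), the basis of the sort, ranged from 19.1 to 75.3 FPKM in the D1 columns (median 54.0) and from 0.100 to 3.04 in the D2 libraries (median 1.60), a log2 fold change of -5.08 ± 0.547 (SE; adjusted p = 1.05e-05). Tac1 (chr6:7554879-7565834), the precursor of substance P, ranged from 3.19 to 16.9 FPKM (median 8.88) against 0.318 to 0.982 (median 0.675), at -3.86 ± 0.373 (adjusted p = 2.59e-06). The cell types did not overlap for either gene, and D1 libraries 8 and 2 were the lowest D1 libraries for both.

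Pdyn (chr2:129686565-129699844), the precursor of dynorphin, ranged from 3.13 to 11.9 FPKM in D1-MSNs (median 8.89) and from 0.0745 to 0.984 in D2-MSNs (median 0.780), at -3.68 ± 0.457 (adjusted p = 8.17e-05). Isl1 (chr13:116298281-116309689), a transcription factor of the D1-MSN lineage, ranged from 1.74 to 2.49 FPKM (median 2.18) against 0.0510 to 0.898 (median 0.636), at -1.96 ± 0.371 (adjusted p = 0.00933). Chrm4 (chr2:91927249-91928688), the muscarinic M4 receptor, ranged from 5.49 to 13.2 FPKM (median 9.98) against 0 to 2.26 (median 1.23), with no count in D2 libraries 1 and 3, at -3.11 ± 0.663 (adjusted p = 0.0205). None of the 3 overlapped between cell types, but Chrm4 lost its call with the close D1 pairs summed (adjusted p = 0.0736) and kept it in 24 of 29 other fits.

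The D2-MSN markers were higher in the D2 libraries by between 2.34- and 39.3-fold. Drd2 (chr9:49340627-49408177), the basis of that sort, ranged from 0.157 to 1.01 FPKM in the D1 columns (median 0.323) and from 7.73 to 33.3 in the D2 libraries (median 17.3), at 5.30 ± 0.400 (adjusted p = 5.43e-08). Adora2a (chr10:75316877-75334784), the A2a adenosine receptor, ranged from 0.319 to 1.30 FPKM (median 0.559) against 5.96 to 14.2 (median 8.70), at 3.80 ± 0.272 (adjusted p = 2.88e-08). Both were lowest in D2 library 2 among the D2 libraries and highest in D1 library 8 among the D1 columns, and neither overlapped.

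Penk (chr4:4133531-4138819), the precursor of enkephalin, ranged from 11.5 to 51.4 FPKM in D1-MSNs (median 30.7) and from 185.7 to 393.8 in D2-MSNs (median 264.2), at 3.16 ± 0.291 (adjusted p = 1.29e-06). Gpr6 (chr10:41069977-41072285), an orphan receptor of the striatum, ranged from 0.845 to 4.41 FPKM (median 1.29) against 10.1 to 29.4 (median 17.1), at 3.28 ± 0.332 (adjusted p = 5.27e-06). Sp9 (chr2:73271925-73284706), a transcription factor that D2-MSNs need in development, ranged from 0.370 to 0.709 FPKM (median 0.557) against 0.731 to 1.47 (median 1.35), at 1.23 ± 0.222 (adjusted p = 0.00663). All 3 were without overlap, and Penk was the marker with the highest median in the cells sorted for the other type. In bulk libraries fewer cells of a type and less RNA per cell cannot be told apart, so the level of a marker in the opposite type has no single reading.

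**Figure D3:**
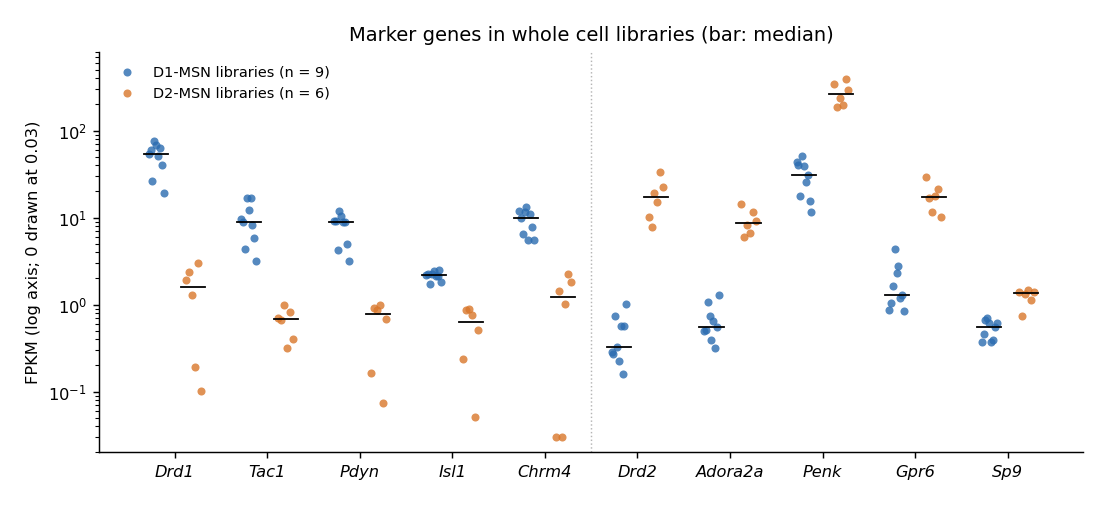
FPKM (log axis) of the 5 D1-MSN and 5 D2-MSN markers in each whole cell library, with bars at the medians and values of 0 drawn at 0.03. For each of the 10 genes the points of the 9 D1 columns (blue) and the 6 D2 libraries (orange) do not overlap.

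Summed over the D1-MSN markers, the D1 columns held 178.2 to 845.5 CPM and the D2 libraries 14.5 to 40.1 CPM. Summed over the D2-MSN markers, the D1 columns held 143.0 to 379.5 CPM and the D2 libraries 860.9 to 4579 CPM. Both sums therefore separated the cell types in every library, as the labels have it.

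Setting the whole cell fold changes beside those of the other isolation methods in 1 fit each, the difference itself was tested. Against the 12 male RiboTag libraries, in which ribosome-bound RNA was pulled from tagged cells, 4 of the 10 markers differed, where 0.554% of the 10651 genes tested did. The log2 fold change was -4.90 whole cell and -1.93 RiboTag for Drd1 (adjusted p of the difference = 0.0114), -3.70 and -1.32 for Tac1 (0.00357), 5.45 and 2.73 for Drd2 (0.00301) and 3.98 and 2.45 for Adora2a (0.0491). All 4 were larger in whole cells, and that of Adora2a lost its call with DESeq2's size factors (0.0566) and with the repeat summed (0.0717). Against the 11 nuclear libraries 8 of 10 markers differed, where 24.9% of 29995 genes did, and Tac1 (0.0477) lost its call with the repeat summed (0.0578). There Penk (-3.95), Gpr6 (-2.63), Adora2a (-1.59) and Sp9 (-1.20) were lower in the libraries labelled D2 than in those labelled D1, while the whole cell values were 3.40, 3.63, 4.30 and 1.51. The nuclear values thus went against their label for 4 of the 5 D2-MSN markers. Drd2 (0.259) and all D1-MSN markers went with it: Drd1 (-3.26), Chrm4 (-2.25), Tac1 (-1.93), Pdyn (-1.67) and Isl1 (-0.404). With DESeq2's size factors the 4 stayed below 0 but were smaller in size, from -3.37 for Penk to -0.644 for Sp9, and Isl1 was at 0.0849. Only the difference from whole cells was tested, not the nuclear values on their own, and the cause was not tested.

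In all, 20 genes, 8 of the 10 markers among them, were called in the main fit and in each of 29 other fits (0.12% of genes tested), 9 D1-enriched and 11 D2-enriched. The D1-enriched ones were Drd1, Tac1, Pdyn, Isl1, Sfxn1, Stmn1, Slc35d3 and the non-coding genes Gm34557 and E130119H09Rik. The D2-enriched ones were Drd2, Adora2a, Penk, Gpr6, Ankk1, Ttc12, P2ry1, B3gat1, Nt5e and the non-coding genes A830012C17Rik and Gm37711. Sfxn1, Gm34557 and E130119H09Rik lie within 200 kb of Drd1, and Ankk1 and Ttc12 within 200 kb of Drd2. Whether the calls of these neighbours are separate from those of the genes that the sort rests on was not tested. Nt5e and the 4 non-coding genes fell outside the rule for named genes and are given because this count selected them.

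Sfxn1 (chr13:54071869-54108342), a mitochondrial serine carrier, had the smallest p of all D1-enriched genes. It ranged from 7.00 to 11.3 FPKM in the D1 columns (median 8.16) and from 0.305 to 0.932 in the D2 libraries (median 0.533), at -3.97 ± 0.240 (adjusted p = 2.19e-09). It lies beside Drd1, and of the 8 tested genes within 200 kb of Drd1 5 were D1-enriched and none D2-enriched, while of 4 beside Drd2 2 were D2-enriched. Those 2 were Ankk1 (3.74 ± 0.334, adjusted p = 9.54e-07), a kinase-like gene, and Ttc12 (2.28 ± 0.342, adjusted p = 0.00118), a cilia gene.

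Stmn1, which binds free tubulin, ranged from 4.24 to 8.60 FPKM in D1-MSNs (median 6.79) and from 0.534 to 1.98 in D2-MSNs (median 1.11), at -2.42 ± 0.255 (adjusted p = 8.02e-06). Slc35d3, an orphan sugar transporter that acts on D1 receptor trafficking, ranged from 2.32 to 9.23 FPKM (median 7.17) against 0 to 1.64 (median 0.332), at -3.60 ± 0.594 (adjusted p = 0.00302). Neither gene overlapped between cell types, and Slc35d3 had no count in D2 library 1. P2ry1, the ADP receptor P2Y1, ranged from 0.616 to 1.38 FPKM in D1-MSNs (median 1.05) and from 2.46 to 9.89 in D2-MSNs (median 5.34), at 2.46 ± 0.255 (adjusted p = 6.87e-06). B3gat1, which makes the HNK-1 carbohydrate, ranged from 0.694 to 1.11 FPKM (median 0.929) against 1.83 to 2.61 (median 2.01), at 1.21 ± 0.131 (adjusted p = 1.05e-05). Nt5e, the ectoenzyme that makes adenosine from AMP, ranged from 0.358 to 0.850 FPKM (median 0.449) against 0.817 to 1.46 (median 0.977), at 1.01 ± 0.199 (adjusted p = 0.0131). The cell types were separate for P2ry1 and B3gat1 and overlapped at their edges for Nt5e, where D1 library 8 lay above D2 library 4. A830012C17Rik (chr4:4138321-4188703; 1.27 ± 0.176, adjusted p = 0.000439) overlaps Penk on the other strand at one end only. Strand was not used in counting, so its counts may include reads of Penk, and how many was not tested. Among the D2 libraries it was highest in library 2, where Penk was lowest.

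Further D1-enriched DEGs with the smallest p were Gpr26, an orphan receptor (-1.54 ± 0.180), Gnb4, a G protein beta subunit (-1.18 ± 0.162), Foxp2, a transcription factor (-1.16 ± 0.175), Ugcg, which makes glucosylceramide (-0.998 ± 0.150), Cnr1, the cannabinoid receptor CB1 (-1.23 ± 0.205), and Lrpap1, a chaperone of lipoprotein receptors (-1.36 ± 0.227), with adjusted p between 3.15e-05 and 0.00333. Their D1 and D2 ranges were separate except for Lrpap1, and all 6 kept their call with the close D1 pairs summed. Further D2-enriched DEGs were Gucy1a1, a subunit of the nitric oxide receptor guanylate cyclase (1.18 ± 0.185), Six3, a transcription factor (0.88 ± 0.138), and Tbc1d8, a protein with a Rab GTPase-activating domain (0.81 ± 0.139), with adjusted p between 0.00198 and 0.00432. These 3 were also separate and kept their call with the pairs summed.

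The 36 gene lists held 643 tested members and 50 called genes, where 1.97% of all genes tested were called. With the close D1 pairs summed 23 were called (0.467% of all genes), and without D2 libraries 2, 5 and 6 32 were (1.24%). The lists include the 10 markers and were chosen with earlier results of these data known, so an excess of calls is partly built in. The counts per list below stand beside 1.32% D1-enriched and 0.649% D2-enriched of all genes tested. In the dopamine and cyclic AMP list 1 of 43 genes was D1- and 4 were D2-enriched, with a median log2 fold change of 0.19 beside -0.08 over all genes tested. Gnai1, an inhibitory G protein subunit, ranged from 0.961 to 1.54 FPKM in D1-MSNs (median 1.20) and from 0.531 to 0.903 in D2-MSNs (median 0.688), at -0.78 ± 0.145 (adjusted p = 0.00815). Gng7, the G protein gamma subunit of the striatal adenylyl cyclase pathway, was at 0.82 ± 0.160 (adjusted p = 0.0126), and the phosphodiesterases Pde4b and Pde4a were at 1.10 ± 0.234 (0.0205) and 0.57 ± 0.136 (0.0305). Gnai1 was separate between cell types and kept its call with the pairs summed, whereas the 3 named D2-enriched genes overlapped and the list then held 0 D2-enriched genes. The count on the D2 side was 17 with DESeq2 and 12 with DESeq2's size factors in edgeR.

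Among the neuropeptide genes 3 of 9 tested were called, Tac1 and Pdyn D1-enriched and Penk D2-enriched, and they stayed so with the pairs summed. The median over that list was -0.65. None of 11 secretory granule genes was called by edgeR, where 4 had an unadjusted p under 0.05 and DESeq2 called 1 as D2-enriched. Scg2, secretogranin II, had medians of 33.6 FPKM in D1-MSNs and 19.3 in D2-MSNs (-0.66 ± 0.322, adjusted p = 0.321), and Chgb, chromogranin B, was at -0.47 ± 0.218 (adjusted p = 0.287).

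Other G protein-coupled receptors gave 2 D1-enriched and 2 D2-enriched genes of 14 tested, and all 4 stayed DEGs with the pairs summed. Cnr1 ranged from 0.834 to 2.09 FPKM in D1-MSNs (median 1.34) and from 0.408 to 0.786 in D2-MSNs (median 0.596). Oprl1, the nociceptin receptor, ranged from 2.17 to 3.59 FPKM (median 2.78) against 0.624 to 1.78 (median 1.11), at -1.28 ± 0.214 (adjusted p = 0.00333). On the other side Htr2c, the serotonin 2C receptor, ranged from 0.306 to 0.677 FPKM (median 0.473) against 0.772 to 0.983 (median 0.894), at 0.82 ± 0.156 (adjusted p = 0.00977). These 3 receptors did not overlap between cell types. Oprd1, the delta opioid receptor, ranged from 0.184 to 0.985 FPKM (median 0.473) against 0.924 to 1.51 (median 1.19), at 1.39 ± 0.272 (adjusted p = 0.0126). Its ranges met only through D1 library 8, which lay above D2 library 2.

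Of other genes linked with these cell types by earlier work, 2 of 3 tested D1 genes (Foxp2 and Slc35d3) were D1-enriched and 4 of 4 tested D2 genes (Ankk1, Ttc12, Six3 and Grik3) D2-enriched, and 2 and 3 stayed so with the pairs summed. Of 26 tested striatal transcription factors 2 were D1-enriched, Foxp2 and Isl1, and 5 D2-enriched, Six3, Sp9, Foxp1, Tle4 and Bcl11a. The median of the list was -0.03, near that of all genes, and 2 on each side were called with the pairs summed. Foxp1 was also the only shared MSN gene called of 19, at 0.99 ± 0.205 (adjusted p = 0.0187), and it lost the call with the pairs summed (0.0836). The other 18, which both types are known to express, had no call in this fit, their list had a median of 0.45, and 7 of the 19 were D2-enriched under DESeq2's size factors in edgeR and 11 with DESeq2.

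Few transmitter receptors and channels were called. The ionotropic glutamate receptors gave 1 D2-enriched gene of 10, Grik3, a kainate receptor subunit (1.32 ± 0.298, adjusted p = 0.0255), which lost the call with the pairs summed (0.0600). No DEG was found among 4 metabotropic glutamate receptors, 9 GABA-A receptor subunits and 25 potassium channel genes in this fit, where 1, 2 and 10 had an unadjusted p under 0.05 and DESeq2 called 2, 1 and 10 as D2-enriched. Examples are Grm3 (0.58 ± 0.161, adjusted p = 0.0589), Gabrd (0.34 ± 0.187, adjusted p = 0.399) and Kcna4 (0.01 ± 0.253, adjusted p = 0.992). Of 22 calcium and sodium channel genes 1 was D2-enriched, the auxiliary calcium channel subunit Cacnb2 (0.85 ± 0.202, adjusted p = 0.0305), which lost the call with the repeat summed (0.0557) and with the pairs summed (0.114), while DESeq2 called 8 genes of that list as D2-enriched. None of 11 axon guidance genes was called by edgeR, 3 had an unadjusted p under 0.05 and DESeq2 called 4.

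Few synaptic vesicle genes were called. Of 28 tested, 1 was D1-enriched and 3 D2-enriched, where 1.32% and 0.649% of all genes tested were. None was called with the pairs summed, and with DESeq2's size factors in edgeR 0 were D1- and 3 D2-enriched. Syp, the vesicle protein synaptophysin, was the D1-enriched one (-0.96 ± 0.241, adjusted p = 0.0402), and Syt6, a synaptotagmin (0.73 ± 0.152, 0.0179), and Bsn, the active zone scaffold bassoon (0.61 ± 0.159, 0.0466), were among the D2-enriched ones.

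Cytoskeletal and ribosomal protein genes lay lower in D2-MSNs as lists, and most of their members were not called. All 14 stathmin, neurofilament and 14-3-3 genes had fold changes below 0 (median -0.53) and 5 were D1-enriched: Stmn1, Nefm (-1.02 ± 0.234, adjusted p = 0.0278), Stmn2 (-1.35 ± 0.317, 0.0294), Ywhah (-1.12 ± 0.266, 0.0305) and Nefl (-1.17 ± 0.299, 0.0426). With the pairs summed 2 of these remained, Stmn1 and Ywhah, and Ywhah was not called with the repeat summed (0.0517). Nefl lies inside the span of Nefm on the other strand, so reads over Nefl also counted for Nefm. The calls of Nefl and Nefm are therefore not independent. Of 76 cytosolic ribosomal protein genes 75 were below 0 (median -0.86) and 7 were D1-enriched, among them Rpl14 (-1.43 ± 0.267, adjusted p = 0.00887) and Rpl37a (-1.74 ± 0.398, 0.0266). DESeq2 called 15 of the 76 as D1-enriched, where it called 1.99% of all genes so, and edgeR with DESeq2's size factors called 3. Rpl14 ranged from 3.29 to 15.7 FPKM in the D1 columns (median 8.49) and from 2.88 to 3.84 in the D2 libraries (median 3.48). The ranges overlapped through D1 library 8, and 1 ribosomal protein gene was called with the pairs summed.

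The summed CPM of the ribosomal protein genes was 627.6 to 2450 in the D1 columns, lowest in D1 libraries 8, 2 and 7. In the D2 libraries it was 1924 in library 1 and 408.2 to 722.7 in the other 5. Heat shock genes (median -0.61, 14 of 15 below 0) gave 1 D1-enriched gene, Hsp90aa1 (-1.40 ± 0.325, adjusted p = 0.0282), and actin and tubulin genes (median -0.38) also gave 1, Tubb2a (-0.97 ± 0.245, 0.0412), out of 23. Tubb2a lost its call with the repeat summed (0.0703), with the pairs summed (0.0728) and with DESeq2's size factors in edgeR (0.0658). Hsp90aa1 kept its call with the repeat summed (0.0439) and with the pairs summed (0.0381), and in 17 of 29 other fits in all. It lost the call with the repeat left out, and was highest in that column, at 29.6 FPKM against 12.1 in D1 library 1. Among 77 nuclear genes of the respiratory chain (median -0.44) and 15 genes of the mitochondrial genome (median -1.20) none was called by edgeR in this fit and 1 each by DESeq2, although 21 and 11 had an unadjusted p under 0.05, all lower in D2-MSNs. None of 17 immediate early genes, which report recent activity, was called by edgeR, with 5 at an unadjusted p under 0.05 and 1 called by DESeq2, and Arc had medians of 4.75 FPKM in D1-MSNs and 6.63 in D2-MSNs (0.78 ± 0.270, adjusted p = 0.131).

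**Figure D4:**
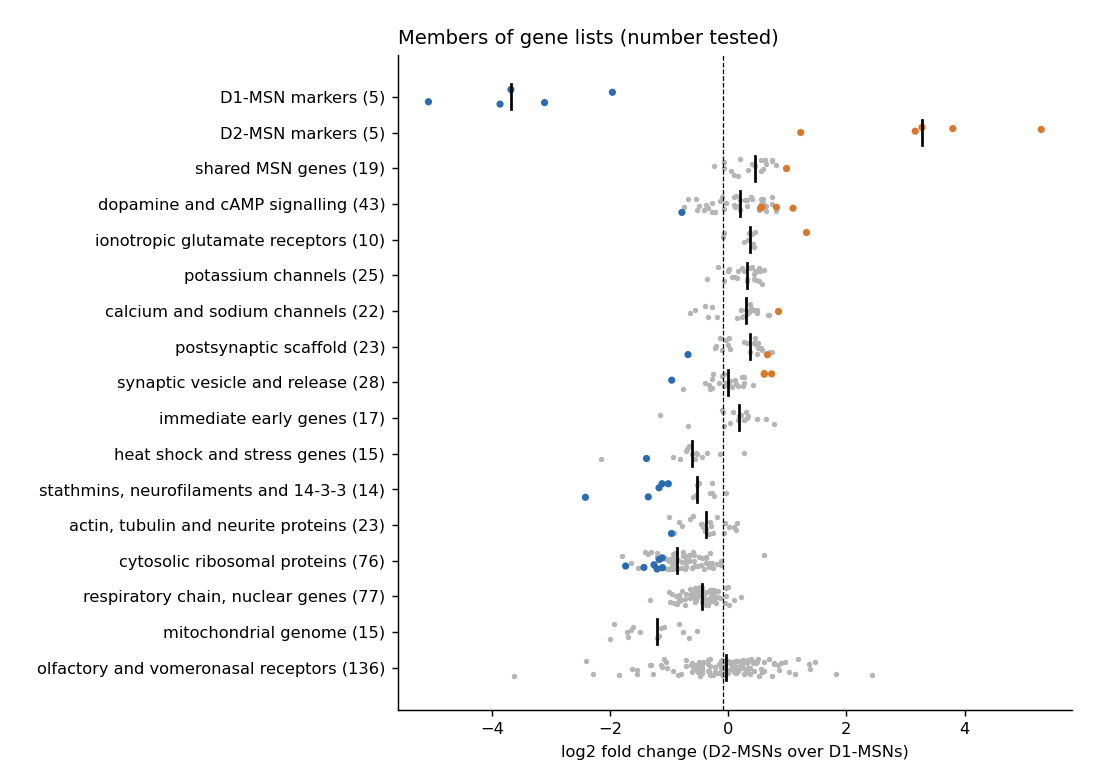
Log2 fold change (D2-MSNs over D1-MSNs) of the tested members of 17 gene lists, with the number tested in brackets. D1-enriched DEGs are blue, D2-enriched DEGs orange and other members grey, a bar marks the median of each list, and the dashed line marks the median of all genes tested, -0.08. Of the 76 ribosomal protein genes 75 lie below 0, and the marker lists lie farthest from the dashed line.

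Of 9 long non-coding RNAs that stay in the nucleus none was called by edgeR or DESeq2 and 1 had an unadjusted p under 0.05, with a list median of 0.16. Malat1 ranged from 290.6 to 1180 FPKM in the D1 columns (median 772.7) and from 691.2 to 1261 in the D2 libraries (median 921.8).

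Fold changes also went with gene span. The median was 0.06 for 2435 genes under 1 kb, -0.09 for 8119 genes of 1 to 10 kb, -0.13 for 5315 genes of 10 to 100 kb and 0.15 for 775 genes over 100 kb. In the last class 5 genes were D1- and 32 D2-enriched, against 142 and 52 among those of 10 to 100 kb. The D1-enriched DEGs had a median span of 14.3 kb and the D2-enriched DEGs one of 47.1 kb. Genes over 100 kb took 41.9 to 49.4% of the counts in the D1 columns and 22.2 to 52.2% in the D2 libraries, lowest in D2 libraries 2 and 6. Protein-coding genes were 92.3% of the D1-enriched and 69.4% of the D2-enriched DEGs, beside 55.2% of all genes tested.

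Many of the most abundant D2-enriched DEGs were short RNAs, and they did not behave alike in the D2 libraries. They were looked at after their values were seen. Of the 18 D2-enriched DEGs with a mean above 20 FPKM in D2-MSNs, 4 were protein-coding and 10 were annotated as rRNA, miRNA, snRNA, snoRNA or scaRNA. In 10 of the 18 D2 libraries 2, 5 and 6 all lay above D2 libraries 1, 3 and 4. The 8 that stayed DEGs without D2 libraries 2, 5 and 6 were Penk and 7 short RNAs, and several short RNAs in this group, such as the 5S rRNA genes, have near-identical copies that make their counts uncertain.

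Kpna1, an importin, was at 396.4, 124.3 and 558.6 FPKM in D2 libraries 2, 5 and 6, at 1.99 to 2.98 in D2 libraries 1, 3 and 4 and at 3.09 to 22.8 in the D1 columns (3.98 ± 0.940, adjusted p = 0.0304). It overlaps Gm15564 on the other strand, and each took 1.20% of the counts in D2 library 2 and 2.11% in D2 library 6. Reads over both genes counted for each, so Kpna1 and Gm15564 cannot be told apart here. Cd44, an adhesion receptor, was at 60.4 to 238.3 FPKM in D2 libraries 2, 5 and 6 and at 0.524 to 0.747 in the other D2 libraries, and the miRNA locus Mir6236 at 3538 to 52071 against 39.7 to 109.2. None of Kpna1, Cd44 and Mir6236 was a DEG without libraries 2, 5 and 6, where the log2 fold changes were -2.17 for Kpna1, -2.32 for Cd44 and -2.64 for Mir6236, with adjusted p from 0.102 to 0.190. Gm22451, an snRNA, went the other way, at 100.1 to 219.1 FPKM in D2 libraries 1, 3 and 4 and 0.619 to 10.4 in D2 libraries 2, 5 and 6, beside 0 to 20.7 in the D1 columns (3.35 ± 0.865, adjusted p = 0.0437). The 5S rRNA gene n-R5s33 (3.19 ± 0.524, adjusted p = 0.00299) was at 1.81 without D2 libraries 2, 5 and 6 (adjusted p = 0.123). Without those libraries 49 of the 220 D1-enriched and 59 of the 108 D2-enriched DEGs kept their call, and 4 of the D2-enriched were no longer tested. The share of counts in the 10 highest genes was highest in the same 3 libraries, and its part in these fold changes was not tested.

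Few markers of other cell types passed the filter on low values. Of 12 astrocyte genes 2 were tested, of 12 oligodendrocyte genes 3, of 5 precursor genes 2, of 12 endothelial and mural genes 3, of 5 ependymal genes 2 and of 10 GABA interneuron genes 2, and none was called by edgeR. There 1 astrocyte and 1 endothelial or mural gene had an unadjusted p under 0.05, and DESeq2 called 1 astrocyte gene. No cholinergic interneuron or cortical and thalamic gene passed the filter. Oligodendrocyte genes summed to 178.6 to 292.9 CPM in the D1 columns and 107.4 to 261.3 in the D2 libraries, and Cnp, a myelin enzyme, was at -0.34 ± 0.199 (adjusted p = 0.434). Of 136 tested receptor genes of smell and pheromones, a gauge of counts that do not come from MSN transcripts, 0 were called by edgeR and by DESeq2, 5 had an unadjusted p under 0.05, and their median was -0.04.

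**Figure D5:**
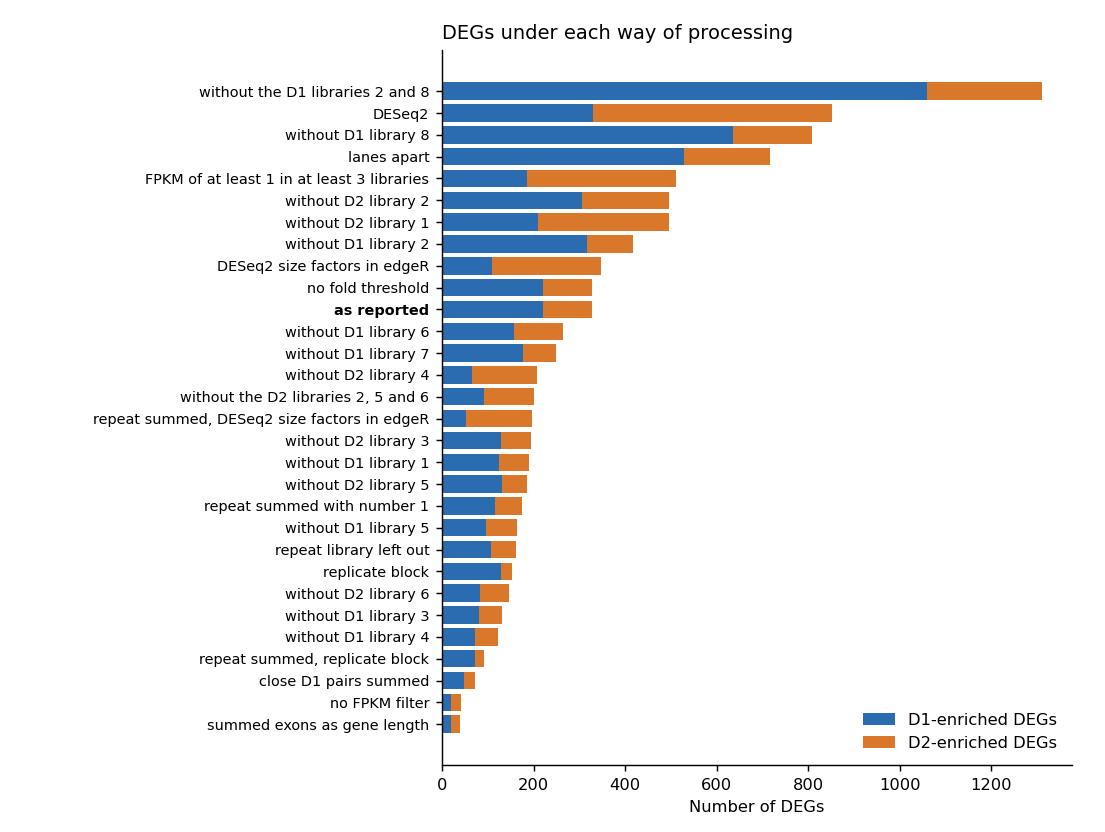
Number of DEGs (D1-enriched blue, D2-enriched orange) in the fit reported (bold) and in each of 29 other fits, sorted by total. The totals run from 40 with summed exons as gene length to 1311 without D1 libraries 2 and 8.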

How the data were processed

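Whole cell libraries were used as deposited: read counts per gene that the authors made with HISAT2 2.0.5 on GRCm38 and featureCounts (Ensembl 90 genes), over whole gene bodies and without regard to strand, with reads over several genes counted for each and multimapping reads left out. Of 49 count columns 39 were used, and 10 columns of RiboTag libraries labelled female were not used here. The table holds 52636 genes, of which 52489 (99.72%) matched GENCODE M21 for names, biotypes, spans and coordinates. D2 library 3 is the sum of 2 lanes. The labels list 8 D1 and 8 D2 whole cell samples, and the table has 9 D1 and 7 D2 columns, matched by the number in their names.

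Genes were kept, after the study's filter and on DESeq2's size factors, if 2 or more libraries exceeded 1 FPM, 1 or more reached an FPKM of 1 and none exceeded 50000. Tests used edgeR 4.0.16 (TMM, quasi-likelihood, Benjamini-Hochberg over all genes tested) in R 4.3.3. DESeq2 1.42.0 was an alternative. SE is the fold change divided by the root of F. Printed FPKM use TMM library sizes, so that a value may pass the filter's maximum. Marker fold changes were also compared between methods in joint fits with the male RiboTag or the nuclear libraries. Library properties were compared by exact permutation (SciPy 1.17.1). Scripts were tested on simulated data with 200 changed genes. Promoter windows are from RefSeq. Results that need certain withheld genes are not reported here.

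Named genes were the 10 markers, the 12 DEGs with the smallest p in each direction that have a symbol and stayed DEGs with the repeat summed, up to 4 DEGs per list or otherwise 2 members with the highest level, and the 5 highest protein-coding genes. The members, lists and tests were chosen with earlier results of these data known. Genes that overlap or have near-identical copies are uncertain. Depth was 7876138 to 27965357 counts per library, and an SD or SE covers counting error and the spread between libraries together.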

Additional observations from a re-analysis of the deposited data

Results flagged for a closer look

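Single libraries lay far from the rest of their cell type in 18 of the 210 sets of values checked with Dixon's test. Chance gives about 1 in 20 for independent sets of normally distributed values. The sets here were mostly unlogged FPKM from the same libraries, so the count cannot show an excess over chance. In D1 library 5 mt-Rnr2 was at 3093 FPKM, mt-Rnr1 at 2141, mt-Atp6 at 963.6 and Cdk8 at 119.4, and mitochondrial genes took 1.34% of its counts. In D2 library 1 mt-Co1 was at 198.2 FPKM and the mitochondrial share was 0.328%. In D2 library 2 Mir6236 was at 52071 FPKM, Gm10801 at 1325, A830012C17Rik at 1.62, Gjb6 at 1.24 and E130119H09Rik at 0.697. In D2 library 5 Nefl was at 18.6 FPKM and Arc at 17.0. The 5S rRNA gene n-R5s33 stood out in D1 library 7 at 99.9 FPKM and in D2 library 6 at 744.5. In D1 library 8 Oprd1 was at 0.985 FPKM and Ccdc153 at 0.991.

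The cell type difference of the markers differed between isolation methods in a test of the difference itself. Whole cell minus RiboTag, the log2 fold change differed by -2.97 for Drd1, -2.38 for Tac1, 2.72 for Drd2 and 1.53 for Adora2a. Whole cell minus nuclear, it differed by -1.72 for Tac1 (adjusted p = 0.0477, and 0.0578 with the repeat summed), -2.10 for Pdyn, -1.54 for Isl1, 5.54 for Drd2, 5.89 for Adora2a, 7.34 for Penk, 6.26 for Gpr6 and 2.71 for Sp9.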

How the results depend on the processing

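The counts of DEGs depended strongly on the processing. The 328 DEGs (220 D1-, 108 D2-enriched) became 852 (331 and 521) with DESeq2, 348 (109 and 239) with DESeq2's size factors in edgeR, 512 (185 and 327) with an FPKM of 1 required in 3 libraries, 717 (529 and 188) with the lanes of D2 library 3 apart, 161 (107 and 54) without the repeat column, 174 (115 and 59) with it summed, 41 (19 and 22) with no FPKM filter and 40 (19 and 21) with summed exons as gene length. The fold threshold removed none. With no FPKM filter and with summed exons more genes were tested, 33627 and 31743 against 16644. Fewer of them had an unadjusted p under 0.05, 2206 and 2060 against 2671. The causes of all these shifts were not tested. Leaving out one library gave 123 (without D1 library 4) to 809 (without D1 library 8) DEGs, 66 (without D2 library 4) to 636 D1-enriched and 50 (without D1 library 4) to 286 (without D2 library 1) D2-enriched. The total also moved by over 1.5 times without D1 libraries 1 (its repeat kept; 191), 3 (132) and 5 (164) and without D2 libraries 1 (496), 2 (497), 3 (194), 4 (207), 5 (186) and 6 (147). Chosen after the data were seen, the repeat summed with DESeq2's size factors gave 197 (52 and 145), leaving out D2 libraries 2, 5 and 6 gave 202 (92 and 110), leaving out D1 libraries 2 and 8 gave 1311 (1061 and 250), and summing the close D1 pairs gave 72 (49 and 23).

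The called members of the gene lists, 50 as reported, were 120 with DESeq2, 65 with DESeq2's size factors and 31 without the repeat. They were 32 with the repeat summed, 23 with the close D1 pairs summed and 32 without D2 libraries 2, 5 and 6. Of all genes tested, 1.97% were called as reported, 5.12% with DESeq2, 2.09% with DESeq2's size factors and 0.984% without the repeat. The share was 1.06% with the repeat summed, 0.467% with the pairs summed and 1.24% without D2 libraries 2, 5 and 6. Of the 60 named DEGs, all that were tested kept their direction in every alternative but 1: without D2 libraries 2, 5 and 6, Kpna1 at -2.17, Cd44 at -2.32, Mir6236 at -2.64 and Gm15564 at -2.73, none of them a DEG there. The named DEGs were chosen by their call in the main fit, and the alternatives mostly refit the same libraries. A kept direction was therefore largely given in advance, and the direction of other genes was not compared.

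Cells of both types share replicate numbers, but the numbers did not pair the libraries. The correlation of deviations of same-numbered libraries was between -0.208 and 0.105 over 6 pairs. No D1 library correlated best with the D2 library of its own number. With the replicate block there were 153 DEGs (129 D1-, 24 D2-enriched), and with the repeat summed as well 92 (72 and 20). The shallowest library held 7876138 counts, and the 6 D2 libraries varied more than the D1 columns (median SD 0.982 against 0.535). The D1 columns include the repeat and the close pairs, which can lower their SD.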
